A study of Caenorhabditis elegans with 12 samples.

Results

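The genes described here are 8 Caenorhabditis elegans genes grouped as CUB-like and dod stress-response genes: dod-17, dod-19, dod-21, dod-22, dod-24, C32H11.9, D1086.3 and T24B8.5. They are 8 of the 46711 gene names present in both deposited count tables, and they were chosen by name, as dod genes and as genes with a low level in the control strain DG3913. That low level was therefore used to choose them, and every comparison with DG3913 is given for these genes as a description without a test. The data are ribosome footprints, the mRNA fragments that translating ribosomes shield from RNase I, from whole mid-L4 larvae harvested 45 h after feeding at 20 °C. Each of 4 strains was sequenced in 3 replicates, lettered A to C.

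All strains were fed E. coli HB101 and synchronised by hatching embryos without food. DG3913 carries lin-41(tn1541), an allele that tags LIN-41 with a fluorescent protein, and is the labelled wild type for VT3878. VT3878 carries lin-41(tn1541ma480) and let-7(ma432), and its label states that effects downstream of lin-41 are left out of it. VT1367 carries the transgene maIs105, a reporter driven by the adult collagen gene col-19, and is the labelled wild type for VT3797. VT3797 carries maIs105 and let-7(ma435). let-7 is a microRNA gene with a known role in the larva-to-adult switch, and lin-41 is one of its main targets. The groups hold no strain free of both a lin-41 allele and a transgene, and a difference between VT3878 and DG3913 holds a change of the lin-41 allele as well as of let-7. VT3878 and the maIs105 strains differ in let-7, lin-41, transgene and deposited table together, and these cannot be told apart. The labels do not say whether the letters stand for separate cultures, so the p-values measure the spread between these libraries.

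As background, DAF-16 is the FOXO transcription factor that insulin signalling through the receptor DAF-2 keeps out of the nucleus. The dod genes, named for being downstream of DAF-16, include a class that falls when DAF-16 is active, to which dod-17, dod-19, dod-21, dod-22 and dod-24 belong. Several encode proteins with a CUB-like domain, a fold shared by many secreted proteins that the worm intestine makes in response to bacterial pathogens. A second input on such genes is the PMK-1 p38 MAP kinase pathway, in which TIR-1, NSY-1 and SEK-1 act upstream of PMK-1 and the transcription factor ATF-7 acts below it. T24B8.5, a small secreted peptide with a ShK-like motif, is widely used as a reporter of that pathway.

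Total counts ran from 8405704 to 12726449 in DG3913, from 9447942 to 17453345 in VT3797, from 13359763 to 26975815 in VT3878 and from 21138669 to 44950649 in VT1367. Depth therefore moved with strain, and levels are given as CPM, the usual scaling of read counts to a common library total, here with TMM factors. All 8 genes passed the filter on low counts in each comparison and in each library they held at least 39 counts. Whole larvae were lysed, so fewer cells making a protein and less of its mRNA per cell cannot be told apart, and footprints alone do not tell mRNA amount from translation. The summed level of 10 intestinal markers (elt-2, ges-1, act-5 and others) overlapped between all strains, at 5120 to 6960 CPM in DG3913, 6660 to 7840 in VT3797, 6030 to 6820 in VT1367 and 6020 to 8480 in VT3878, with no marker at 0 in every library. Single markers were not all unchanged. By edgeR, 1 was higher and 1 lower in VT3797 against VT1367, where 4.11% and 6.75% of all genes were called. In VT3878, 3 were higher than in VT3797, where 8.66% of all genes were higher. Against VT1367, 3 were higher and 1 lower, where 26.2% were called in either direction. Against DG3913 edgeR called none and DESeq2 called 1.

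Every library of DG3913 lay below every library of the other 3 strains for 6 of the 8 genes, namely dod-17, dod-21, dod-24, C32H11.9, D1086.3 and T24B8.5. Among the 12774 genes tested in all 4 comparisons, 4.55% lay so, and nothing is read from the 6, since low DG3913 levels chose the genes. For dod-19 and dod-22 the DG3913 mean was also the lowest, but its libraries overlapped those of VT3878. Every DG3913 library of dod-19 was still below every VT1367 and VT3797 library, while dod-22 overlapped in these strains too. The highest strain mean exceeded the lowest 7.91-fold for dod-21 and 7.92-fold for C32H11.9, 3.89-fold for T24B8.5, 2.69-fold for D1086.3, 2.51-fold for dod-24, 1.88-fold for dod-19, 1.5-fold for dod-17 and 1.28-fold for dod-22. Without C32H11.9, whose reads may be those of dod-21, the other 7 genes summed to between 280.4 and 356.0 CPM in DG3913 libraries, 443.7 and 574.8 in VT3878, 547.4 and 594.9 in VT1367, and 552.1 and 640.0 in VT3797. Most of each sum was dod-19.

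**Figure D1:**
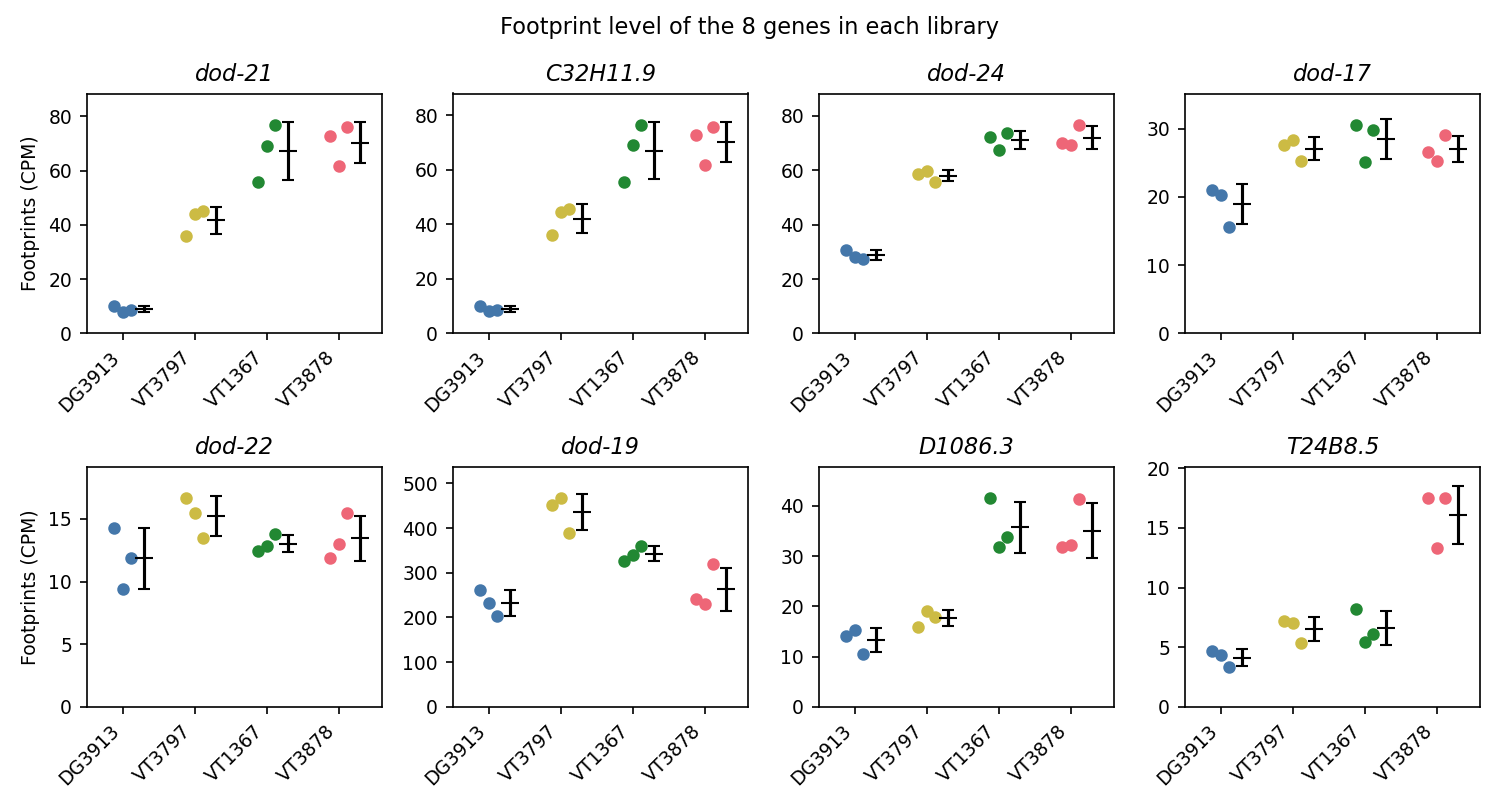
Footprint level (CPM, linear axis from 0) of each of the 8 genes in each library, by strain, with points for libraries and bars for the mean ± SD of 3 libraries. DG3913 is lowest and apart from the other strains for 6 genes, dod-19 is highest in VT3797, and T24B8.5 is highest in VT3878.

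In all, 5 of the genes lie in 43.3 kb of chromosome IV, from 12935011 to 12978343 in WBcel235. In order they are C32H11.9 (WBGene00007872, also named cld-1, minus strand, 12935011 to 12936271), dod-21 (WBGene00007873, plus strand, 12936738 to 12937988), dod-24 (WBGene00007875, minus strand, 12940106 to 12941354), dod-22 (WBGene00010125, plus strand, 12965374 to 12967392) and dod-17 (WBGene00010745, plus strand, 12976303 to 12978343). The gaps between them are 466, 2117, 24019 and 8910 bases. The others are dod-19 (WBGene00022644) on chromosome V from 411782 to 414759 on the minus strand, D1086.3 (WBGene00008390) on chromosome V from 14092792 to 14093986 on the plus strand, and T24B8.5 (WBGene00011979, also named sysm-1) on chromosome II from 9082626 to 9083193 on the minus strand. All are annotated as protein-coding and none overlaps another annotated gene. Their coding lengths run from 297 bases for T24B8.5 to 1218 bases for dod-19.

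C32H11.9 and dod-21, both CUB-like genes, could not be separated in these counts. They are divergent neighbours with coding lengths of 1107 and 1083 bases, and their counts differed by at most 11 in any of the 12 libraries, or by 0.086% to 2.041%. In DG3913 the counts of C32H11.9 were 84, 100 and 115 and those of dod-21 were 85, 98 and 116. In VT1367 they were 1156, 3124 and 2466 for C32H11.9 and 1157, 3119 and 2475 for dod-21. How reads that match both genes were counted is not given in the sources used here, so each change below is that of the pair. The difference was within 2% of the dod-21 count in 11 of the 12 libraries. Apart from this pair, no gene was within 2% of a member in all libraries.

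The same arrangement continues outward. C32H11.8 (minus strand, 12933928 to 12934771) lies beyond C32H11.9, and C32H11.11 (plus strand, 12938213 to 12939071) lies beyond dod-21, and the annotation gives both the name srlf-6. Their counts were also close but less so, at 39 and 37, 77 and 73, and 124 and 110 in DG3913 and 161 and 151, 302 and 273, and 183 and 173 in VT1367, with C32H11.8 the higher of the 2 in all 12 libraries. This outer pair is described after its values were seen. In VT3797 against VT1367 C32H11.8 had a log2 fold change of -0.31 (edgeR adjusted p 0.227) and C32H11.11 of -0.36 (edgeR adjusted p 0.194), not past the threshold and of the same sign as the inner pair. The pairs parted in VT3878. Against VT3797 C32H11.8 was at -0.60 (edgeR adjusted p 0.0201) and C32H11.11 at -0.64 (edgeR adjusted p 0.0216), where the inner pair rose. Against VT1367 they were at -0.91 (edgeR adjusted p 0.000638) and -0.99 (edgeR adjusted p 0.000385), where the inner pair was not called. In VT3878 against DG3913, C32H11.8 fell by 0.96 on the log2 scale (SE 0.218, edgeR adjusted p 0.0215) and C32H11.11 fell by 1.03 (SE 0.212, edgeR adjusted p 0.0126), while the fitted values of C32H11.9 and dod-21, which were chosen by this difference, were both 2.98. How far the outer pair shares reads cannot be told here, since how reads matching both genes were counted is not given.

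**Figure D2:**
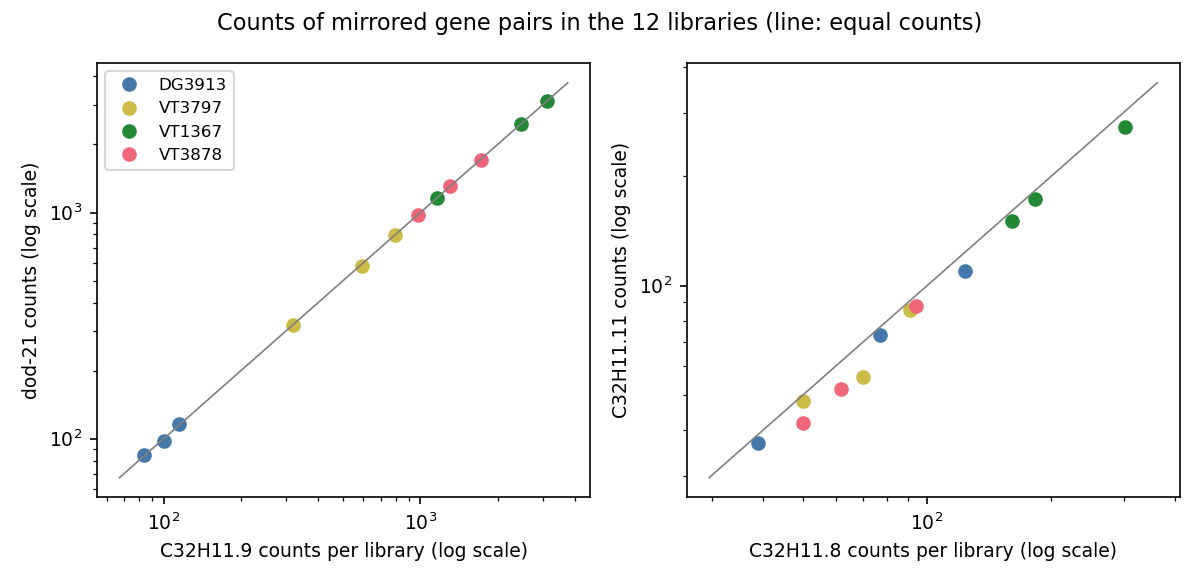
Counts per library of C32H11.9 against dod-21 (left) and of the flanking C32H11.8 against C32H11.11 (right), on log axes, 12 libraries coloured by strain, with the line of equal counts. The inner pair lies on the line, with DG3913 libraries at 84 to 116 counts, and the outer pair lies just below it.

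dod-21 was at 10.17, 7.935 and 8.504 CPM in DG3913 and at 72.76, 61.65 and 76.1 CPM in VT3878. In VT1367 it was at 55.68, 69.05 and 76.86 CPM and in VT3797 at 35.76, 43.85 and 45.24 CPM. DG3913 was lowest, VT3797 lay between without touching any other strain, and VT1367 and VT3878 overlapped. The level of dod-21 fell in VT3797 against VT1367, from a mean of 67.2 ± 10.71 CPM to one of 41.62 ± 5.117 CPM (SD, n = 3 each; log2 fold change -0.68, SE 0.117, edgeR adjusted p 0.00136). It was higher in VT3878 than in VT3797 (log2 fold change 0.74, SE 0.116, edgeR adjusted p 6.24e-04). C32H11.9 gave -0.67 (SE 0.117, edgeR adjusted p 0.00171) and 0.72 (SE 0.116, edgeR adjusted p 7.39e-04) in these comparisons, which is the same evidence counted again. These calls of both genes held under every alternative that was run.

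dod-24, a CUB-like gene known to be induced by bacterial infection, had the same order of strains with smaller gaps. Its level was 30.76, 28.18 and 27.35 CPM in DG3913, 58.59, 59.68 and 55.75 CPM in VT3797, 72.33, 67.3 and 73.82 CPM in VT1367 and 70.01, 69.42 and 76.74 CPM in VT3878. VT3797 again stood between DG3913 and the overlapping pair of VT1367 and VT3878. dod-24 was lower in VT3797 than in VT1367 (log2 fold change -0.29, SE 0.0737, edgeR adjusted p 0.0185) and higher in VT3878 than in VT3797 (0.31, SE 0.0906, edgeR adjusted p 0.0329). Both calls were lost when single libraries were left out, although the log2 fold changes stayed at -0.26 to -0.33 and 0.26 to 0.34. The first was lost without VT1367 replicate A or C or VT3797 replicate B or C (adjusted p 0.0522 to 0.0749), and the second without VT3878 replicate A or C or any one VT3797 replicate (0.0555 to 0.118), with the replicate letter as a block (0.0655) and at equal depth (0.0502). Over the 12 libraries the log2 CPM of dod-24 and dod-21 correlated at 0.99 (Pearson). These include the DG3913 libraries, whose low levels chose the genes, so the likeness between strains is not independent of the choice. Their deviations from the strain means correlated at 0.353.

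dod-17 and dod-22, the CUB-like genes at the other end of the chromosome IV group, passed the threshold in no comparison of the strains other than DG3913. dod-17 was at 21.07, 20.24 and 15.62 CPM in DG3913, 27.55, 28.4 and 25.19 CPM in VT3797, 30.56, 25.06 and 29.84 CPM in VT1367 and 26.61, 25.26 and 29.11 CPM in VT3878. The last 3 strains overlapped, and DG3913 lay below them, with replicate C the lowest library. Log2 fold changes of dod-17 were -0.07 (SE 0.098, edgeR adjusted p 0.740) in VT3797 against VT1367 and -0.01 (SE 0.105, edgeR adjusted p 0.964) in VT3878 against VT3797. dod-22 had the smallest ratio of highest to lowest strain mean, although its libraries varied within strains, at 9.392 to 14.24 CPM in DG3913, 13.48 to 16.64 in VT3797, 12.46 to 13.82 in VT1367 and 11.89 to 15.45 in VT3878, and all 4 ranges were in contact with a neighbour in the order. Its log2 fold changes were 0.21 (SE 0.107, edgeR adjusted p 0.280) and -0.17 (SE 0.134, edgeR adjusted p 0.419) in the same comparisons. In VT3878 against VT1367 dod-17 was at -0.08 (SE 0.105, edgeR adjusted p 0.629) and dod-22 at 0.04 (SE 0.116, edgeR adjusted p 0.821).

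dod-19 had another order. It was the most abundant of the 8 genes per length in every strain, at 190.4 CPM per kb of coding sequence in DG3913, 357.8 in VT3797, 281.3 in VT1367 and 215.6 in VT3878. Its level was 261.1, 231.6 and 203.1 CPM in DG3913, 240.3, 229.0 and 318.5 CPM in VT3878, 326.7, 340.5 and 360.6 CPM in VT1367 and 451.5, 466.5 and 389.3 CPM in VT3797. DG3913 and VT3878 overlapped, and VT1367 and VT3797 each stood apart above them. dod-19 rose in VT3797 against VT1367, from 342.6 ± 17.06 CPM to a mean of 435.8 ± 40.97 CPM (SD, n = 3 each; log2 fold change 0.35, SE 0.082, edgeR adjusted p 0.0131), opposite in sign to dod-21, dod-24 and D1086.3. It was lower in VT3878 than in VT3797 (log2 fold change -0.74, SE 0.129, edgeR adjusted p 0.00142) and than in VT1367 (-0.39, SE 0.119, edgeR adjusted p 0.0292). The rise against VT1367 was lost with all 12 libraries in 1 fit (adjusted p 0.0911) and without VT1367 replicate A or B or VT3797 replicate B (0.0622 to 0.0991). The difference between VT3878 and VT1367 was lost without VT3878 replicate A or B or any one VT1367 replicate (0.0508 to 0.136).

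D1086.3 paired the strains in another way, with VT3797 close to DG3913. It was at 14.01, 15.22 and 10.56 CPM in DG3913, 15.97, 19.08 and 17.82 CPM in VT3797, 41.48, 31.86 and 33.76 CPM in VT1367 and 31.74, 32.1 and 41.38 CPM in VT3878. The 2 low strains did not touch each other, by a margin of less than 1 CPM, and the 2 high strains overlapped. D1086.3 fell from 35.7 ± 5.098 CPM in VT1367 to 17.62 ± 1.567 CPM in VT3797 (SD, n = 3 each; log2 fold change -1.0, SE 0.113, edgeR adjusted p 8.61e-05). It was higher in VT3878 than in VT3797 by 0.98 (SE 0.127, edgeR adjusted p 1.32e-04). Both calls held under every alternative run.

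T24B8.5, the reporter of the p38 pathway, set VT3878 apart from all other strains. It was at 17.47, 13.32 and 17.48 CPM in VT3878, against 7.197, 7.043 and 5.369 CPM in VT3797, 8.181, 5.468 and 6.149 CPM in VT1367 and 4.668, 4.372 and 3.372 CPM in DG3913. The lowest VT3878 library was above every library of the other strains, and VT3797 and VT1367 overlapped. The level of T24B8.5 was higher in VT3878 than in VT3797 (log2 fold change 1.30, SE 0.162, edgeR adjusted p 8.90e-05) and than in VT1367 (1.30, SE 0.157, edgeR adjusted p 5.15e-05), calls that held under every alternative run. Between VT3797 and VT1367 the log2 fold change was -0.01 (SE 0.175, edgeR adjusted p 0.985). With 39 to 54 counts in DG3913 and 64 to 94 in VT3797, T24B8.5 rests on the fewest reads of the 8.

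The comparison of VT3797 with VT1367, which sets the let-7(ma435) mutant beside its own control and does not involve DG3913, called 5 of the 8 genes. dod-19 was the 1 higher gene, where 4.11% of the 13614 genes tested were higher, and dod-21, C32H11.9, dod-24 and D1086.3 were the 4 lower, where 6.75% were lower. The median log2 fold change of the 8 genes was -0.18 and that of all genes -0.005. The count of 5 and the median include dod-21 and C32H11.9 together. With C32H11.9 left out, 4 of 7 genes were called, and the middle log2 fold change was that of dod-17, -0.07. The count of 5 fell to 3 without VT1367 replicate A or VT3797 replicate B. Cuticle and molting genes moved in the same comparison. Of 10 molting-cycle genes 9 were lower, with summed levels of 992 to 1450 CPM in VT1367 and 532 to 544 CPM in VT3797, and all 5 hypodermal markers were lower. In VT3878 the molting genes summed to 351 to 540 CPM, with 3 of 10 lower than in VT3797 and 9 of 10 lower than in VT1367, and DG3913 was lowest at 246 to 317 CPM. The part of these genes' stage or tissue in the members' changes was not tested.

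VT3878 differed from VT3797 in 6 of the 8 genes. Higher were dod-21, C32H11.9, dod-24, D1086.3 and T24B8.5, where 8.66% of 13139 genes were higher, and dod-19 was lower, where 8.45% were lower. The median log2 fold change of the 8 was 0.51 and that of all genes -0.002. This count and median include dod-21 and C32H11.9 together, which could not be separated. With C32H11.9 left out, 5 of 7 genes were called, and the middle log2 fold change was that of dod-24, 0.31. Both strains are let-7 mutants, but their tables, lin-41 alleles and transgene differ too. Against VT1367, VT3878 differed in 2 of the 8, T24B8.5 being higher and dod-19 lower, where 26.2% of 13882 genes differed in either direction. The other 6 genes had log2 fold changes between -0.08 and 0.06 with SEs of 0.0863 to 0.126 and edgeR adjusted p between 0.629 and 0.919, which does not show that the levels were equal. VT1367 and VT3797 are each used in 2 of these comparisons, as is VT3878, so the comparisons are not independent.

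**Figure D3:**
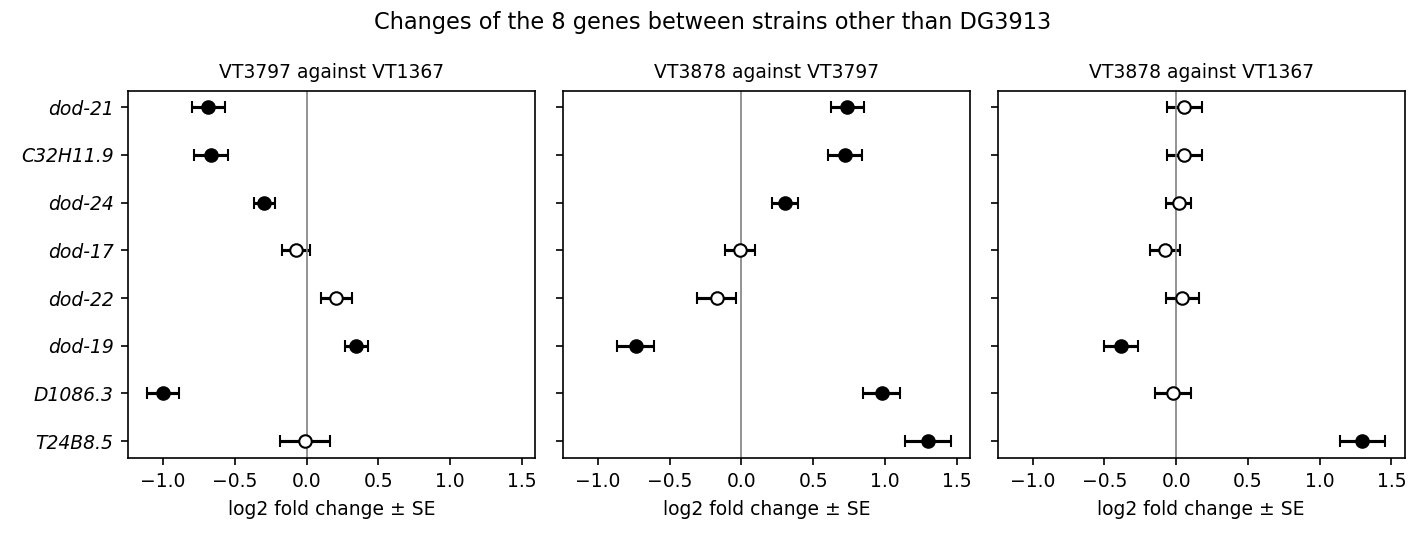
Log2 fold change ± SE (horizontal axis) of each of the 8 genes in the 3 comparisons without DG3913, with filled points where the edgeR adjusted p is under 0.05. dod-21, C32H11.9, dod-24 and D1086.3 are below 0 in VT3797 against VT1367 and above 0 in VT3878 against VT3797, where dod-19 takes the opposite sides.

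For VT3878 against DG3913, the fitted log2 fold changes, given as a description, were 2.98 for dod-21 and for C32H11.9, 1.95 for T24B8.5, 1.39 for D1086.3, 1.31 for dod-24, 0.50 for dod-17, 0.18 for dod-22 and 0.16 for dod-19. In this comparison 3.07% of the 12874 genes tested were called higher and 2.57% lower, and nothing is read from this for genes chosen by it. For dod-21, C32H11.9, dod-24 and D1086.3 every VT3878 library lay above DG3913 and every VT3797 library below VT1367, as for 2.65% of the 12774 genes, where the comparison with DG3913 was used in the choice. Libraries of near equal depth can be set side by side: DG3913 replicate B, VT3878 replicate A and VT3797 replicate B have totals of 12726449, 13359763 and 13500599 counts, and held 98, 979 and 579 counts of dod-21, 188, 427 and 252 of D1086.3, and 54, 235 and 93 of T24B8.5. After all libraries of a comparison were thinned to equal depth, the log2 fold change of dod-21 was 3.04 against DG3913 and -0.70 in VT3797 against VT1367.

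Genes near the members on chromosome IV, within 20 kb of any of the 5, did not all move with them. Of 21 such genes 14 were tested. None was called in VT3797 against VT1367 by edgeR or by DESeq2, and 6 had an unadjusted edgeR p under 0.05. By edgeR, 1 was higher and 4 lower in VT3878 against VT3797 (DESeq2 called 1), 1 higher and 5 lower against VT1367, and 3 higher and 3 lower against DG3913. Among all genes, 8.66% were higher and 8.45% lower against VT3797, and 26.2% were called in either direction against VT1367. Against DG3913 3.07% were higher and 2.57% lower. C32H11.4, a CUB-like gene on the other side of C32H11.8, rose in VT3878 against DG3913 (log2 fold change 1.25, edgeR adjusted p 0.00377) and against VT1367 (0.70, edgeR adjusted p 0.00549). C32H11.6, annotated as srlf-5, fell in VT3878 against DG3913 by 1.09 on the log2 scale (edgeR adjusted p 0.0197). F55G11.4, a CUB-like gene between dod-22 and dod-17, was at 40.7 CPM in DG3913, 91.1 in VT3797, 75.9 in VT1367 and 46.8 in VT3878, and it was lower in VT3878 than in VT3797 (log2 fold change -0.97, edgeR adjusted p 0.00146). F55G11.2, also between them, was higher in the same comparison (0.44, edgeR adjusted p 0.0465). The neighbours F55G11.7, F55G11.8, K10D11.2 and K10D11.3, from the list of immune effectors below, passed the threshold in no comparison.

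**Figure D4:**
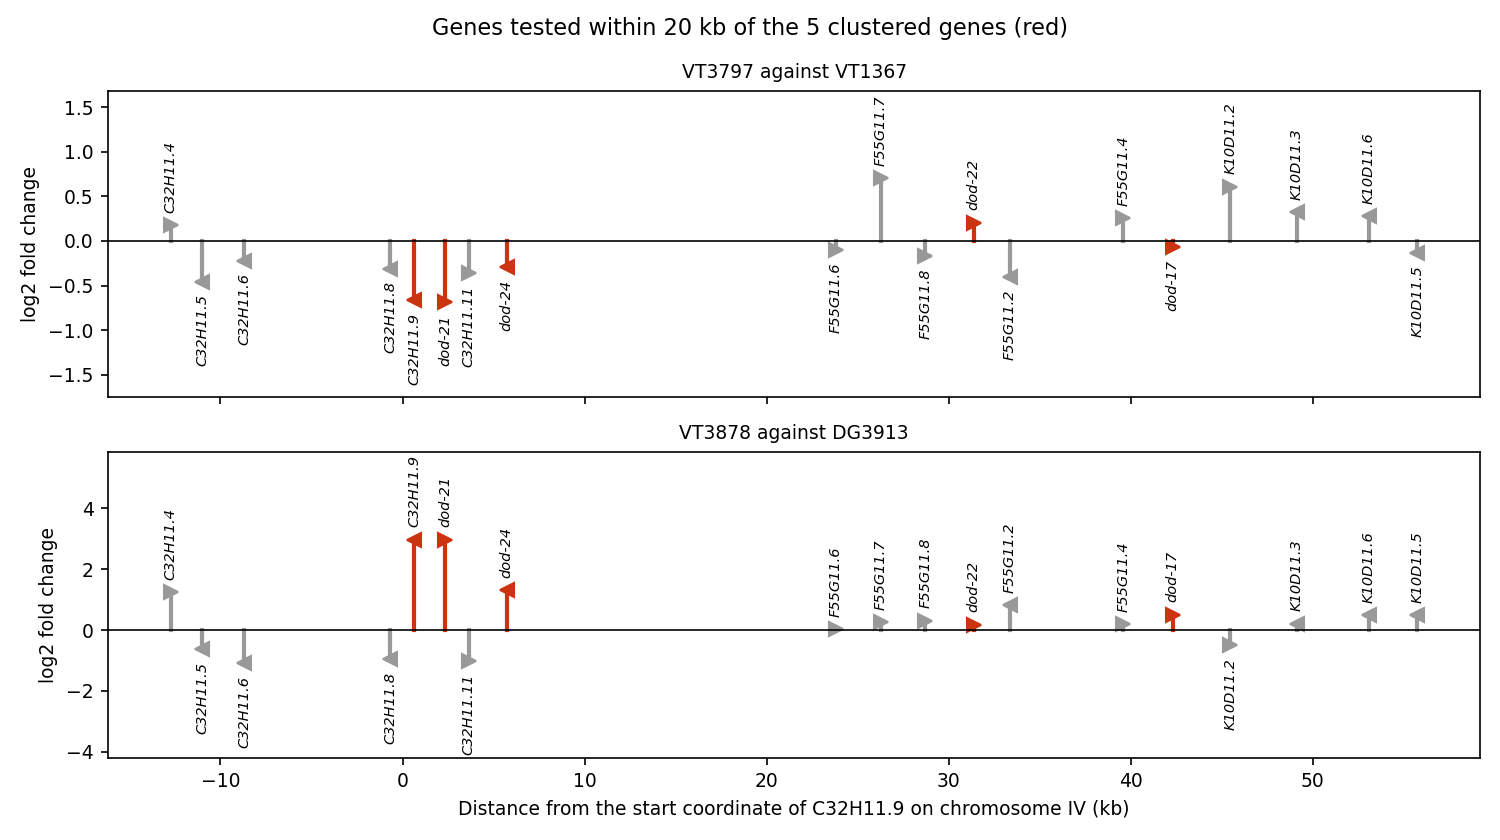
Log2 fold change (vertical axis) of the tested genes within 20 kb of the 5 clustered members, placed by distance in kb from the start of C32H11.9, with arrowheads for strand and members in red, for VT3797 against VT1367 (top) and VT3878 against DG3913 (bottom, a description for members). In the lower panel C32H11.9 and dod-21 stand at 2.98 between C32H11.8 and C32H11.11 at -0.96 and -1.03.

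Near dod-19 on chromosome V lie dod-20 and ZK6.11, the latter named irg-8 as an infection response gene. ZK6.11 was at 374 CPM in DG3913, 678 in VT3797, 618 in VT1367 and 589 in VT3878, and it rose in VT3878 against DG3913 (log2 fold change 0.64, SE 0.141, edgeR adjusted p 0.018). It passed no threshold between the other strains, unlike dod-19. dod-20 was at 4.64 to 7.47 CPM as strain means and was called in no comparison by edgeR. In VT3878 against VT3797 its log2 fold change was -0.70 (edgeR adjusted p 0.053), where DESeq2 called it lower (adjusted p 0.0444). The genes next to D1086.3, him-5 and D1086.8, were not called in VT3797 against VT1367 (log2 fold changes -0.05, edgeR adjusted p 0.87, and -0.17, edgeR adjusted p 0.529). Farther off but within 20 kb, D1086.11 and D1086.6 were higher in VT3797 than in VT1367 (log2 fold change 0.66, edgeR adjusted p 0.000848, and 0.78, edgeR adjusted p 0.000555), against the fall of D1086.3. Of the 4 tested neighbours of T24B8.5 none rose in VT3878 by edgeR or DESeq2, and T24B8.4, next to it, was lower than in VT3797 (log2 fold change -0.42, edgeR adjusted p 0.0224).

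The members were not one profile. Correlated with the mean of the members' standardised log2 CPM (C32H11.9 left out), dod-24 reached 0.968, dod-17 0.949 and dod-21 0.943, but D1086.3 0.798, T24B8.5 0.724, dod-19 0.626 and dod-22 0.617. These are descriptions over 12 libraries from 4 strains, the members enter the mean, and DG3913 libraries share a low depth. The low DG3913 values that chose the genes also shape the mean, and each of the 10 genes named next has its lowest strain mean in DG3913, so their likeness is not independent of the choice. dod-19 and T24B8.5 correlated at 0.018 and dod-19 and D1086.3 at 0.151. Their deviations from the strain means correlated at 0.545 and 0.56. Among pairs without C32H11.9, these deviations correlated between -0.158 (dod-21 and T24B8.5) and 0.858 (dod-19 and dod-24). The 10 other genes closest to the mean, among 10861 with a mean of at least 50 counts, were dct-17, cyp-14A5, F08G5.6, Y41E3.1, clec-209, F56A4.2, Y32B12B.4, fasn-1, W02B12.1 and ZK6.11, with correlations of 0.936 to 0.95. F08G5.6, named irg-4, is a CUB-like infection response gene and was at 8.126 CPM in DG3913, 14.23 in VT3797, 13.65 in VT1367 and 16.37 in VT3878. fasn-1, the fatty acid synthase, was at 816.3, 1127, 1100 and 1149 CPM in the same order, and Y32B12B.4 at 2.241, 25.06, 23.75 and 23.49 CPM. clec-209 and F56A4.2 had nearly the same level in each strain, 46.19 CPM both in DG3913, and may share reads.

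The other dod genes were dod-3, dod-6, dod-18, dod-20 and dod-23. In VT3797 against VT1367 none of the 5 was called lower by edgeR or DESeq2, with 3 at an unadjusted edgeR p under 0.05. dod-3 had a log2 fold change of -0.61 there (SE 0.245, edgeR adjusted p 0.151). dod-23 rose, from 18.0 to 31.1 CPM (log2 fold change 0.79, SE 0.101, edgeR adjusted p 0.000162). In VT3878 against VT3797, dod-23 fell by 0.75 (edgeR adjusted p 0.00448) and dod-6 fell by 0.74 (edgeR adjusted p 0.0445) on the log2 scale, as dod-19 did. In VT3878 against VT1367 none of the 5 was called by edgeR or DESeq2, with 1 at an unadjusted edgeR p under 0.05. Against DG3913, dod-6 fell by 0.60 in VT3878 (edgeR adjusted p 0.0325) and the other 4 were not called. Of all genes, 4.11% were higher and 6.75% lower in VT3797 against VT1367, and 8.66% and 8.45% in VT3878 against VT3797. In VT3878 against VT1367 26.2% were called in either direction, and against DG3913 3.07% were higher and 2.57% lower.

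A list of 20 immune effectors (CUB-like genes, lysozyme and lectin genes and others, 19 tested) was higher in VT3878 against DG3913 for 7 genes and lower for 1, with a median log2 fold change of 0.54. F08G5.6 (log2 fold change 1.00, SE 0.138, edgeR adjusted p 0.000991) and C17H12.8 (0.64, SE 0.106, edgeR adjusted p 0.00338) had the smallest p among those that rose, and irg-1, an infection response gene, fell by 1.03 (SE 0.155, edgeR adjusted p 0.0017). In VT3797 against VT1367 clec-67, a C-type lectin gene, and irg-1 rose (0.35, edgeR adjusted p 0.016, and 0.86, edgeR adjusted p 0.00649) and none was called lower by edgeR or DESeq2, with 7 of 19 at an unadjusted edgeR p under 0.05. F55G11.2 had a log2 fold change of -0.40 there (10.7 to 8.06 CPM, edgeR adjusted p 0.0606), the sign of dod-21. In VT3878 against VT3797 4 rose and 3 fell, with C17H12.8 at 0.56 (edgeR adjusted p 0.000732) and the lysozyme gene lys-2 at 0.61 (edgeR adjusted p 0.000744), and with irg-1 at -1.27 (edgeR adjusted p 4.11e-05) and F35E12.5, a CUB-like gene, at -1.39 (edgeR adjusted p 4.14e-05). Against VT1367 6 rose and 2 fell, with lys-2 at 0.81 (edgeR adjusted p 5.27e-05), C17H12.8 at 0.49 (edgeR adjusted p 0.00101), F35E12.5 at -1.10 (edgeR adjusted p 0.000109) and F55G11.4 at -0.71 (edgeR adjusted p 0.00309). lys-2 was at 285 CPM in DG3913, 299 in VT3797, 261 in VT1367 and 458 in VT3878, and C17H12.8 at 237, 252, 265 and 373 CPM, so that, as for T24B8.5, VT3878 was highest. F35E12.5 was at 1.68, 10.5, 8.53 and 4.04 CPM in that order of strains. Median log2 fold changes of the list were 0.17, 0.09 and 0.25 in these 3 comparisons, beside about 0 for all genes. The calls stand beside 3.07% of all genes higher and 2.57% lower in VT3878 against DG3913. These shares were 4.11% and 6.75% in VT3797 against VT1367, and 8.66% and 8.45% in VT3878 against VT3797. In VT3878 against VT1367, 26.2% of all genes were called in either direction.

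**Figure D5:**
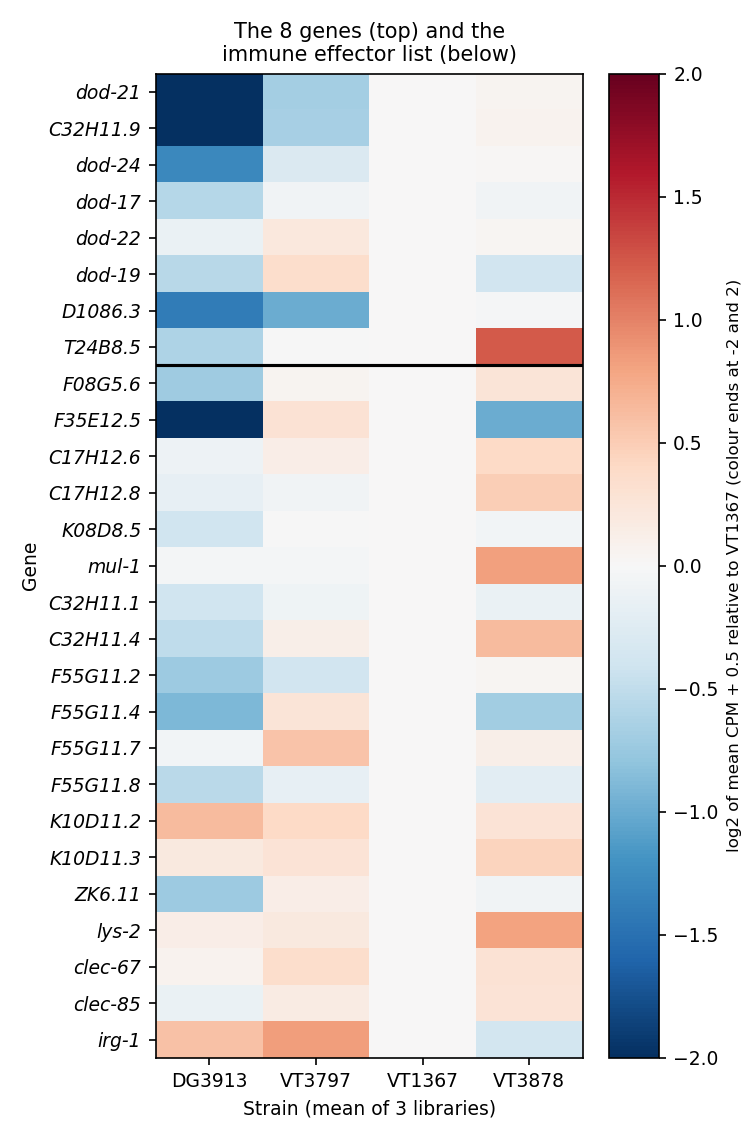
Log2 ratio of the mean CPM (plus 0.5) of each strain to VT1367, for the 8 genes (top) and the immune effector list (below), colour scale ending at -2 and 2. The DG3913 column is the lowest for each of the 8 genes, and VT3878 is highest for T24B8.5, lys-2 and C17H12.8.

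The lists of pathways known to act on such genes differed in how many members were called. The list of the insulin pathway and regulators held 11 genes (daf-2, age-1, akt-1, daf-18, daf-16 and others), with pqm-1, skn-1 and hlh-30 among the regulators. None of the 11 was called in any of the 4 comparisons by edgeR at an adjusted p under 0.05 or by DESeq2, and 1 to 2 of them had an unadjusted edgeR p under 0.05. Of 10 genes known to be activated by DAF-16, 8 were tested and none called by edgeR in VT3797 against VT1367, where 2 had an unadjusted p under 0.05 and DESeq2 called 1. In VT3878, 3 of 9 were higher than in VT3797, among them gpd-2, a glyceraldehyde phosphate dehydrogenase gene (log2 fold change 0.49, edgeR adjusted p 0.00532), and 3 of 9 were higher than in VT1367, among them the linker histone gene hil-1 (0.77, edgeR adjusted p 0.0103). Against DG3913, 2 of 8 fell: icl-1, the isocitrate lyase and malate synthase of the glyoxylate cycle, fell by 0.92 on the log2 scale (edgeR adjusted p 0.0104) and lea-1 fell by 0.52 (edgeR adjusted p 0.0461). The metallothionein gene mtl-1 was called higher in VT3878 than in VT3797 and VT1367 but was at 0.094 CPM in VT3797, too few reads for a fold. The 3 of 9 called against VT1367 stand beside 26.2% of all genes called there in either direction, and the 3 of 9 higher than in VT3797 beside 8.66% of all genes. Both counts of 3 include mtl-1, and DESeq2 called 2 genes of the list in each of these comparisons. The 2 of 8 lower than in DG3913 stand beside 2.57% of all genes.

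The list for the p38 pathway held 8 genes, namely tir-1, nsy-1, sek-1, pmk-1, pmk-2, vhp-1, atf-7 and zip-2. None of the 8 was called by edgeR or DESeq2 in VT3797 against VT1367, with 1 at an unadjusted edgeR p under 0.05. pmk-1, the p38 kinase itself, was at 33.6 CPM in DG3913, 15 in VT3797, 17 in VT1367 and 20.2 in VT3878. It fell by 0.76 in VT3878 against DG3913 (SE 0.122, edgeR adjusted p 0.00288) and was higher in VT3878 than in VT3797 (0.41, SE 0.113, edgeR adjusted p 0.0232). atf-7 was higher in VT3878 than in VT3797 (0.43, edgeR adjusted p 0.0076) and VT1367 (0.45, edgeR adjusted p 0.00721), while tir-1, which acts at the top of the pathway, was lower (-0.37, edgeR adjusted p 0.042, and -0.40, edgeR adjusted p 0.0158), as was nsy-1 against VT1367 (-0.35, edgeR adjusted p 0.0168). That is 3 of 8 called against VT3797, where 8.66% of all genes were higher and 8.45% lower, and 3 of 8 against VT1367, where 26.2% were called in either direction. Of 8 reporters of other stress responses, hsp-16.2, a small heat shock gene, rose in VT3797 against VT1367 (0.74, edgeR adjusted p 0.000472), gst-4, a SKN-1 target, rose in VT3878 against DG3913 (0.91, edgeR adjusted p 0.00108), and hsp-6 and gcs-1 were higher in VT3878 than in VT1367 (0.27, edgeR adjusted p 0.0351, and 0.24, edgeR adjusted p 0.0413). Those calls were 1 of 8 in VT3797 against VT1367, where 4.11% of all genes were higher, and 1 of 8 against DG3913, where 3.07% were higher. Against VT1367 they were 2 of 8, where 26.2% of all genes were called in either direction, and nothing is read from these 2. Against VT3797 edgeR and DESeq2 called none, with 3 at an unadjusted edgeR p under 0.05. gst-4 stood at 21.3 CPM in DG3913 and 40.5 to 40.7 CPM as the means of the other strains.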

How the data were processed

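Ribosome footprints of 12 libraries, 3 from each of 4 strains, were analysed as raw read counts for each gene, which the authors deposited as 2 tables. Per the submitters' processing notes, cutadapt 1.9, Bowtie2 2.3.4.3 and the build WBcel235 were used. How reads were counted, with which annotation and strand setting, and how reads matching several genes were treated is not given in the sources used here. Samples were grouped by genotype, and all count columns were used.

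Each comparison was fitted with edgeR 4.0.16 (R 4.3.3) to the 6 libraries concerned, on the genes of their table (or common to both tables where a comparison crosses them) that passed filterByExpr, with TMM scaling and a robust quasi-likelihood test. The call threshold was an adjusted p (Benjamini-Hochberg, over all genes tested) under 0.05, and the SE was derived from the F statistic. CPM used TMM over all 12 libraries, and correlations used log2 CPM with a prior count of 2. Levels per kb use coding lengths. Positions come from the Ensembl release 115 annotation of WBcel235. The fits were first tested on simulated counts. The members and lists were chosen with earlier results of these data known. From each list the text names the 2 genes with the lowest p in each direction among those called, and those within 20 kb of a member. The alternatives used DESeq2 1.42.0, upper-quartile scaling, size factors from the median of ratios, no filter, at least 10 counts in every library, the replicate letter as a block, all 12 libraries in 1 fit, C32H11.9 left out, and each library left out. Thinning libraries to one depth was an alternative chosen after seeing the data. Promoters were not searched for DAF-16 motifs, as had been planned, since genome sequence was not used here.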

Additional observations from a re-analysis of the deposited data

Results flagged for a closer look

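For 4 of the genes the libraries of VT3878 all lay above those of DG3913 while those of VT3797 all lay below those of VT1367, as for 2.65% of the 12774 genes tested in all 4 comparisons. The log2 fold change of VT3878 against DG3913 minus that of VT3797 against VT1367 was 3.66 for dod-21, 3.65 for C32H11.9, 2.40 for D1086.3 and 1.61 for dod-24. The difference was not tested, because low levels in DG3913 chose the genes. In all 4 the change of VT3878 against DG3913 was the larger of the 2, and nothing is read from this, since that change was used in the choice. For the same 4 genes the libraries of VT1367 and VT3878 overlapped. C32H11.9 and dod-21 count as 1 case, since their counts could not be separated.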

How the results depend on the processing

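The calls of dod-21, C32H11.9 and D1086.3 in VT3797 against VT1367 and in VT3878 against VT3797, of T24B8.5 in both comparisons of VT3878, and of dod-19 in VT3878 against VT3797 held under every alternative run. Leaving out 1 library at a time, the members called ranged from 3 to 5 in VT3797 against VT1367 and from 1 to 2 in VT3878 against VT1367, and the genes called from 917 to 1529 in VT3797 against VT1367, from 1368 to 2797 in VT3878 against VT3797, from 2406 to 4382 in VT3878 against VT1367 and from 295 to 849 in VT3878 against DG3913. In the last comparison the replicate block gave 424 genes, and all 12 libraries in 1 fit gave 1131, against 726.

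Whether the letters pair the samples is not known. Deviations of same-letter libraries correlated between -0.352 and 0.139, but libraries of different letters were not compared, so these values do not settle it. With the replicate block the members called were 5, 5 and 2 in the 3 comparisons without DG3913. Signs turned where values were near 0. T24B8.5 in VT3797 against VT1367 was 0.0011 with size factors by the median of ratios, 0.007 with the replicate block and -0.14 to 0.15 with 1 library left out. dod-17 in VT3878 against VT3797 was 0.0015 with no filter and -0.069 to 0.047 with 1 library left out. In VT3878 against VT1367, dod-24 was -0.0097 with upper-quartile scaling. With 1 library left out it was -0.034 to 0.046, dod-21 -0.061 to 0.16, C32H11.9 -0.059 to 0.16, dod-22 -0.069 to 0.12 and D1086.3 -0.16 to 0.094. Where 2 libraries remained in a strain, their spread was estimated together with the other strain's.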
